A study of Mus musculus with 2 samples.

Results

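The epidermal growth factor (EGF) family was followed through 3 receptors (Egfr, Erbb2 and Erbb4) and 7 ligands (Hbegf, Areg, Ereg, Tgfa, Btc, Nrg1 and Epgn), 10 of the 19550 genes counted in single cells of the mouse esophagus, gastroesophageal squamocolumnar junction (GE-SCJ) and stomach. The 10 genes were taken as a list of names, and all 10 were in the table. All mice were wild-type C57BL/6. Per the labels, tissue came from 6 mice at embryonic day 15 (E15), 2 at E19, 2 pups at day 2 and 3 adults of 8 weeks, and the methods give another number of pooled mice, so the number behind each group is not settled. Mice of a region and stage were pooled under 1 tag, and all tags were run in a single droplet library, in which no cell can be traced to a mouse. Each region and stage is therefore 1 sample, no difference between groups could be tested, and every interval given here covers counting error only. The adult stomach was not analysed here.

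ERBB receptors are tyrosine kinases of the cell surface. EGF-like ligands are made as membrane proteins, most of which are cut loose by ADAM proteases, and a bound receptor pairs with a partner and signals mainly through the MAP kinase and PI3 kinase pathways. Hbegf, Areg, Ereg, Tgfa, Btc and Epgn code for ligands of EGFR, Nrg1 codes for neuregulin 1, which binds the receptors encoded by Erbb3 and Erbb4, and Erbb2 codes for a partner receptor with no known ligand of its own. In stratified epithelia EGFR signalling is known for supporting basal cell growth, in the stomach transforming growth factor alpha is known for acting on surface mucous cells and acid secretion, and in the enteric nervous system neuregulin receptors mark glia and their precursors.

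On mouse build GRCm38, Egfr lies at chr11:16752203-16918158 (+), Erbb2 at chr11:98412470-98437716 (+) and Erbb4 at chr1:68032186-69108059 (-). Areg (chr5:91139599-91148432, +), Ereg (chr5:91074622-91093646, +), Epgn (chr5:91027464-91035215, +) and Btc (chr5:91357261-91402994, -) sit within 375.5 kb of each other. Tgfa lies at chr6:86195223-86275719 (+) and Nrg1 at chr8:31814551-32884029 (-). RefSeq promoter windows of GRCm38.p6 were matched for 7 of the 10 members, the others being Hbegf, Ereg and Nrg1. The 150 bases before the annotated start are shown for the receptor Egfr and for a pair of neighbouring ligand genes, Areg and Btc, of which Areg was highest in squamous cells and Btc in the second stromal label. Capitals mark matches to any of 4 motifs searched on both strands: the cAMP response element TGACGTCA, the AP-1 motif TGANTCA, the GC box GGGCGG and the TATA box TATAAA.
Areg, chr5:91139449-91139598 (+): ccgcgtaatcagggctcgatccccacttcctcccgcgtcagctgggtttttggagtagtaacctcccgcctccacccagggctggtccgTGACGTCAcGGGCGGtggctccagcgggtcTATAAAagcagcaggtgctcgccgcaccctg
Btc, chr5:91402995-91403144 (-): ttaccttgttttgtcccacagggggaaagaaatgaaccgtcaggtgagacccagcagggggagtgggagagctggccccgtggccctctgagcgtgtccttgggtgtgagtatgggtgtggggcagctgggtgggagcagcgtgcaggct
Egfr, chr11:16752053-16752202 (+): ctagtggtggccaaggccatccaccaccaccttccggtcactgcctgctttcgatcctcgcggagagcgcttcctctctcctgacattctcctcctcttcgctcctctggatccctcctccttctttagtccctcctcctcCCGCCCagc

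The Areg window held a cAMP response element 61 to 54 bases before the start, a GC box at 52 to 47 and a TATA box at 31 to 26, with no overlap between them. The Egfr window held 1 GC box, on the other strand, 9 to 4 bases before the start, and the Btc window held none of the 4 motifs. In the 250 bases before the start of 32851 mouse promoters, the cAMP response element was present in 1.546%, AP-1 in 6.749%, the GC box in 32.74% and the TATA box in 12.37%. Over those 250 bases Tgfa held 2 GC boxes, Epgn 1 TATA box, and Erbb2 and Erbb4 none of the 4. These are letter matches only, and no binding was measured.

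The table held 7808 cells and 107865155 unique molecular identifiers (UMIs, each marking 1 captured molecule), with 143 to 1403 cells and 2302227 to 20070615 UMIs per tag and a median of 10424.5 UMIs per cell. No barcode occurred more than once. The authors' 9 cell labels were grouped into 8 classes, and 54 groups of class, region and stage held at least 20 cells. The class called fibroblast here is the authors' label Stromal, which does not itself name a cell type. A group's level is its UMIs of the gene scaled by all UMIs of the group (CPM), counted near the 3′ ends of transcripts, so levels are compared between groups for 1 gene and not between genes. Cells were checked against marker lists: the list of their own class was the highest in 99.1% of columnar, 94.2% of fibroblast, 90.4% of squamous and 88.7% of smooth muscle cells, but in 62.8% of smooth muscle cells of the pup stomach and 68.9% of those of the pup GE-SCJ. Immune and endothelial cells matched in 76.3% and 71.3%. Among GE-SCJ squamous cells 73.5% matched at E19 (25 of 34 cells) and 80.9% at E15. Those of E19 held 10372 CPM of the squamous list and 3580 CPM of the columnar list. The neural label was checked with 4 of its 6 listed markers (Sox10, S100b, Elavl4 and Tubb3). These summed to 1038 CPM in neural cells and to at most 9.61 CPM in any other class, but were the highest list in 16.0% of the 419 neural cells and in 0 of 24 in the pup esophagus, where they summed to 612.2 CPM and the fibroblast list to 8337 CPM. Over all neural cells the columnar list summed to 1602 CPM and the fibroblast list to 1285 CPM. In the other classes that are not epithelial the columnar list stood at 1341 to 2150 CPM. The second stromal label matched its mesothelial list in 4.32% of cells and is called by its label. That list of Upk3b, Wt1 and Msln summed to 1583 CPM in the second stromal label and to at most 78.1 CPM in any other class. The fibroblast list summed to 7606 CPM in the same cells. A match goes to the list with the largest sum, so the low share does not speak against mesothelial cells under this label. Of all cells, 267 had mostly neighbours from the other side of birth than their tag, 24 of them in the adult GE-SCJ, and printed levels of a group that moved by over 1.5 times without them are given.

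Over all cells the members were read at 7 to 6982 UMIs: 6982 for Hbegf, 3577 for Egfr, 3374 for Erbb2, 1600 for Areg, 1336 for Nrg1, 922 for Btc, 625 for Tgfa, 378 for Ereg, 10 for Epgn and 7 for Erbb4. Epithelial classes led for Erbb2, Hbegf, Areg, Ereg and Tgfa, fibroblasts led for Egfr and Nrg1, and the second stromal label led for Btc. Erbb4, a receptor for neuregulins, had 6 UMIs in columnar cells and 1 in fibroblasts, and 0 in the 419 neural cells, where 3 UMIs would have been 0.801 CPM. Epgn, the gene of the ligand epigen, had 4 UMIs in squamous and 6 in columnar cells. Neither gene can be described further at this depth.

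**Figure D1:**
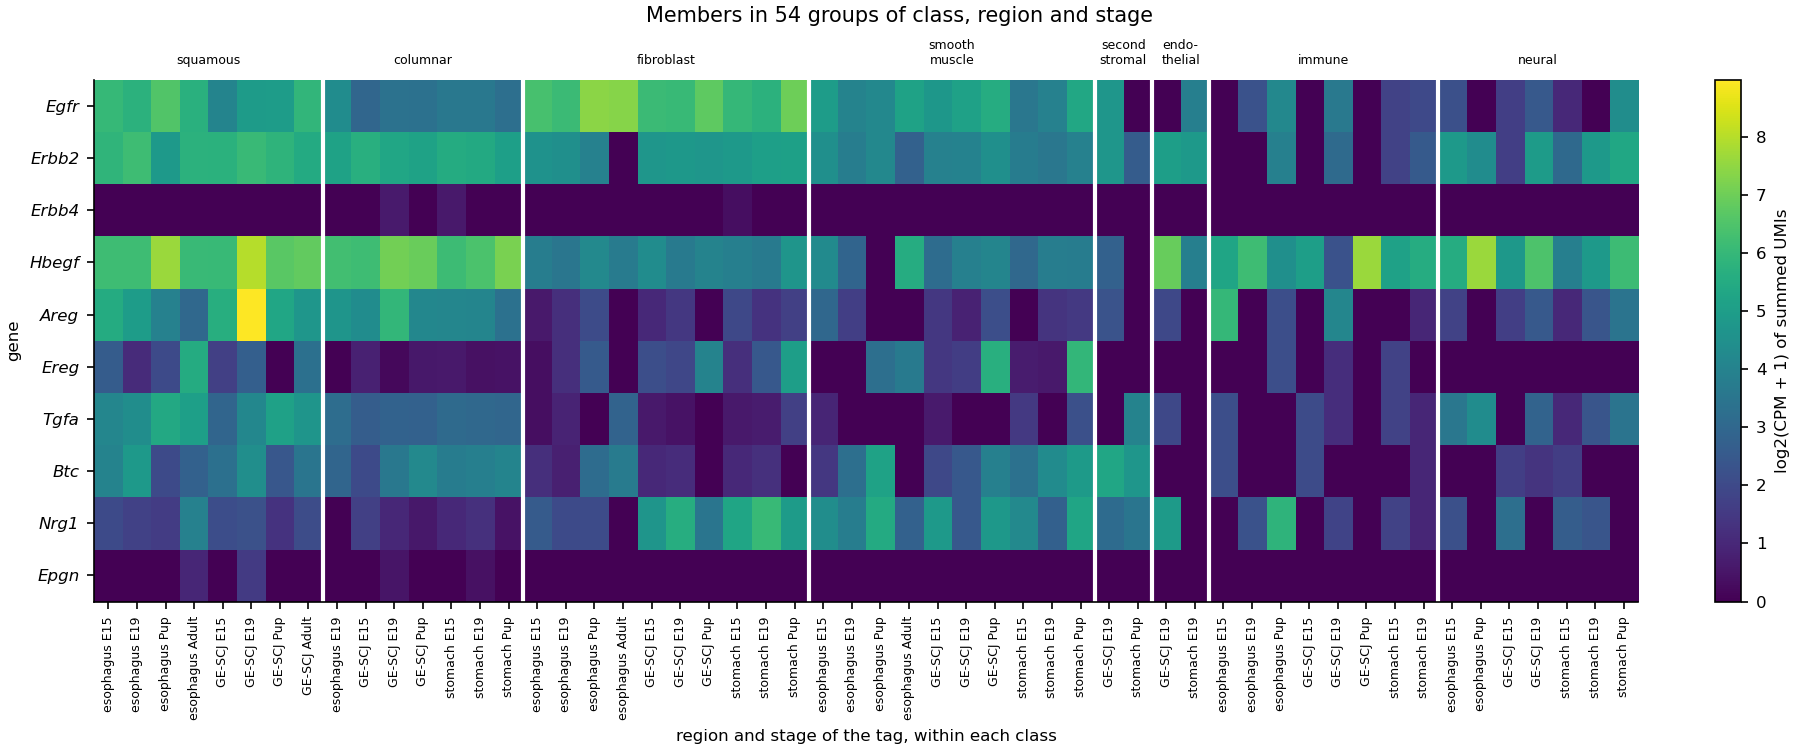
Level of the 10 members, in rows, in the 54 groups of class, region and stage with at least 20 cells, in columns, as log2(CPM + 1) of summed UMIs on a colour scale. Erbb4 and Epgn are near 0 in all 54 groups, Hbegf is high in both epithelial classes, and Areg is highest in GE-SCJ squamous cells at E19.

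Egfr, the receptor shared by the EGF-like ligands, was highest in fibroblasts, at 69.4 CPM (95% interval 66.6 to 72.3), and next in squamous cells, at 51.7 CPM (47.4 to 56.2). Smooth muscle followed at 25.3 CPM, the second stromal label at 17.9, columnar cells at 9.90, immune cells at 7.17, endothelial cells at 4.49 and neural cells at 2.67 (1.28 to 4.91). Intervals of neighbours in this order were apart between fibroblasts and squamous cells, between squamous cells and smooth muscle and between the second stromal label and columnar cells, and overlapped between the other neighbours. Of all Egfr UMIs, 63.0% lay in fibroblasts. At least 1 Egfr UMI was found in 42.0% of fibroblasts (median 8940 UMIs per cell), in 44.7% of squamous cells (11996.5) and in 2.39% of neural cells (7900). Thinning to 5000 UMIs left out cells with fewer, keeping 2940 fibroblasts, 600 squamous cells and 336 neural cells. Shares before and after thinning are therefore not of the same cells. Thinned, these shares were 27.5%, 22.8% and 1.40%. That of columnar cells, which were the deepest with a median of 25118 UMIs, went from 20.6% to 4.79%. The lowest thinned share was that of endothelial cells, at 1.07%. RNA free in the droplets was not measured, and the endothelial and neural shares are not read as expression.

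Within fibroblasts, Egfr stood higher after birth. In the esophagus its level was 80.6 CPM at E15, 69.4 at E19, 170.4 in the pup (139.7 to 205.9) and 160.9 in the adult (105.1 to 235.8). In the GE-SCJ it was 68.4, 65.4 and 106.7 CPM at E15, E19 and in the pup, and in the stomach 62.1, 52.9 and 125.4 CPM. In each region the pup interval lay above the interval of E19. Pup fibroblasts were also shallower, with medians of 3859 to 5072.5 UMIs per cell against 9025 to 10573 before birth, and a sum of 6 early-response genes (Fos, Fosb, Jun, Junb, Egr1 and Atf3, a list drawn up after values were seen) stood at 10949 to 12545 CPM against 2864 to 6821 before birth. The part of either in the Egfr levels was not tested.

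Squamous Egfr differed between regions at E15 and in the pup. Esophageal squamous cells held 63.1, 53.8, 92.5 and 51.1 CPM at E15, E19, pup and adult. Squamous cells of the GE-SCJ held 15.5 (8.47 to 26.0), 29.7, 29.9 and 58.6 CPM. The GE-SCJ was thus lower than the esophagus at E15 and in the pup, with overlapping intervals at E19, and the adult log2 ratio of 0.20 was within counting error. The GE-SCJ over esophagus log2 ratio was -1.95 (-2.87 to -1.12) at E15 and -1.58 (-2.34 to -0.88) in the pup, where 9.11% and 24.4% of genes compared differed by 2-fold or more, and these pairs were chosen after their values were seen. Columnar Egfr was low throughout, from 6.80 to 11.2 CPM in the GE-SCJ and stomach.

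Erbb2, the partner receptor, was highest in squamous cells at 53.8 CPM (49.5 to 58.4), then in columnar cells at 37.8 (36.0 to 39.7). Fibroblasts, endothelial cells, neural cells and the second stromal label lay between 20.1 and 25.8 CPM with overlapping intervals, smooth muscle was at 14.7 and immune cells at 5.05 (3.04 to 7.88). Thinned to 5000 UMIs, 21.1% of squamous and 18.1% of columnar cells held an Erbb2 UMI, against 2.47% of immune cells. Before thinning these shares were 43.3%, 59.6% and 4.52%, so the higher columnar share went with its deeper cells.

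Esophageal squamous cells held 57.0, 72.5, 27.8 and 53.0 CPM at E15, E19, pup and adult, the pup being low. GE-SCJ squamous cells held 52.0, 66.8, 56.7 and 43.8 CPM, the pup value being 35.2 CPM (18 UMIs) without the cells whose neighbours lay across birth. Columnar levels were 49.1, 38.8 and 34.7 CPM in the GE-SCJ and 45.1, 42.3 and 32.1 CPM in the stomach at E15, E19 and in the pup, the pup interval of the stomach (28.9 to 35.6) lying below that of E19 (38.3 to 46.7). Both Egfr and Erbb2 UMIs were found in 23.0% of squamous cells (4.68% when thinned), in 9.38% of fibroblasts (3.63%), in 14.5% of columnar cells (1.08%) and in 0.477% of neural cells (0.271%).

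**Figure D2:**
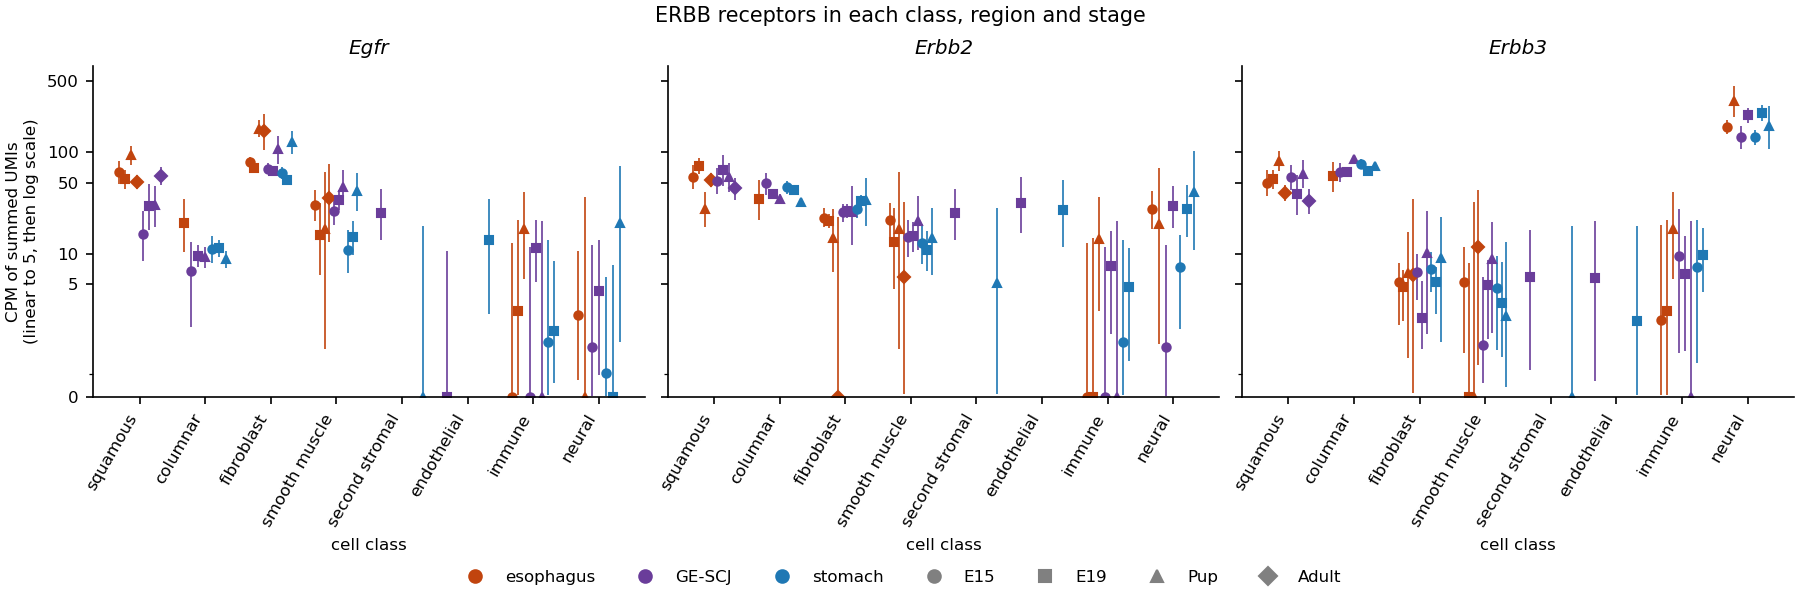
Level of Egfr, Erbb2 and Erbb3 in CPM of summed UMIs (axis linear up to 5 and logarithmic above) in each class, with 1 point per region and stage (colour for region, shape for stage) and exact 95% Poisson intervals. Egfr points reach their highest values in fibroblasts and squamous cells, and lie between 0 and 20.1 CPM in neural and between 0 and 17.5 CPM in immune cells. The 7 neural points of Erbb3 lie above all others, at 140.3 to 320.7 CPM.

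Neural cells, lowest of the classes for Egfr by pooled level though with an interval overlapping that of endothelial cells, were highest for Erbb3, a neuregulin receptor and no member of the list of 10. Erbb3 stood at 189.6 CPM in neural cells, 71.7 in columnar cells, 48.8 in squamous cells and 4.33 to 11.2 CPM in the other 5 classes, and Erbb2 was higher in both epithelial classes than in neural cells (21.6 CPM). The 7 neural groups held between 140.3 CPM (GE-SCJ, E15) and 320.7 CPM of Erbb3 (pup esophagus, the group highest for fibroblast markers). Erbb2 in neural cells was 27.7 CPM at E15 and 19.4 in the pup (2 UMIs) in the esophagus, 2.19 at E15 and 29.6 at E19 in the GE-SCJ, and in the stomach 7.44 at E15, 27.4 at E19 and 40.1 (4 UMIs) among pup cells. At E15 the GE-SCJ interval (0.0555 to 12.2) and that of the stomach (2.99 to 15.3) lay below that of the esophagus (17.5 to 41.5). Over all regions and stages, neural over fibroblast log2 ratios were -4.56 (-5.57 to -3.72) for Egfr, -2.86 (-3.67 to -2.15) for Nrg1, 1.78 (1.52 to 2.04) for Hbegf, 1.06 (0.01 to 1.99) for Areg, 3.25 (2.31 to 4.20) for Tgfa and -0.24 (-0.59 to 0.09) for Erbb2. Ereg had 0 neural UMIs and was at least 3.73-fold lower. Pooled neural cells held 4.005 CPM of Nrg1. Fibroblasts held 4.99 and 3.01 CPM of it in the esophagus at E15 and E19, and 38.24 and 65.04 CPM in the stomach. The Nrg1 ratio therefore depends on the regions pooled. With a call set at 2-fold or more and at least 20 UMIs over both groups, 3 members of 8 compared were called higher in neural cells and 3 lower, where 26.7% of all genes compared were called. The median log2 ratio was 0.03 for the members and 0.16 for all genes. Without the pup, the ratio of Hbegf was 1.63 and that of Erbb3 5.11 (5.13 with it). That of Areg was then 0.93 (-0.225 to 1.929), under 2-fold. Among the 67 neural cells highest for the 4 neural markers, several values were lower. They held 23.2 CPM of Erbb3, 4.63 of Erbb2 (4 UMIs), 12.7 of Hbegf (log2 ratio 0.07) and 0 UMIs of Egfr. Nrg1 was higher in them, at 10.4 CPM (9 UMIs, log2 ratio -1.48), and the Tgfa ratio was 3.07 on 3 neural UMIs. The neural values thus depend on which cells of the label are counted. These 67 cells were not an even draw from the label, with 16 from the GE-SCJ and 20 from the stomach at E15. Of the markers used, Elavl4 and Tubb3 were listed for neurons and Sox10 and S100b for glia. The share of neurons and glia among the 67 was not measured, so their values do not stand for all neural cells.

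Hbegf codes for heparin-binding EGF-like growth factor. It was highest in columnar cells, at 114.1 CPM (110.9 to 117.3), and in squamous cells, at 98.3 (92.4 to 104.4), and 70.6% of its UMIs were columnar. Endothelial, neural and immune cells followed at 52.2, 45.1 and 42.8 CPM with overlapping intervals, and fibroblasts, smooth muscle and the second stromal label were at 10.4 to 13.2 CPM. Thinned to 5000 UMIs, 31.6% of columnar, 23.5% of squamous and 5.60% of fibroblast cells held a UMI, and before thinning 59.7%, 36.3% and 10.1%.

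Esophageal squamous cells held 72.3, 72.0, 198.4 and 67.0 CPM of Hbegf at E15, E19, pup and adult, the pup interval (171.4 to 228.5) lying above the others. In GE-SCJ squamous cells the high stage was E19 instead, with 65.2, 252.4, 101.5 and 110.8 CPM. Columnar Hbegf was 72.5, 133.3 and 121.4 CPM in the GE-SCJ at E15, E19 and in the pup, and 70.2, 84.6 and 142.4 CPM in the stomach. The columnar cells of the GE-SCJ therefore exceeded those of the stomach at E19, and those of the stomach exceeded those of the GE-SCJ in the pup, with intervals apart in both. Fibroblast groups stayed between 10.5 and 24.6 CPM. Some high values rested on few cells: the 197.3 CPM of pup GE-SCJ immune cells came from 35 UMIs in 6 of 30 cells, 91.4% of them in 3 cells. Without the cells whose neighbours lay across birth, the adult GE-SCJ squamous level was 91.2 CPM. The 6 early-response genes were at 4755, 2496, 5266 and 2616 CPM in esophageal squamous cells and at 2711, 4925, 3683 and 2347 CPM in those of the GE-SCJ, in stage order, so they were highest in the same 2 groups as Hbegf. Their r with Hbegf was 0.65 over 8 squamous, 0.70 over 7 columnar and 0.68 over 10 fibroblast groups of 1 library, but 0.14 over all 54 groups. Their part in the Hbegf levels was not tested.

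Areg codes for amphiregulin. Squamous cells were highest at 48.8 CPM (44.8 to 53.2), columnar cells followed at 22.1 (20.7 to 23.6) and immune cells at 9.03, and the other 5 classes were at 1.51 to 2.94 CPM. Of the 523 squamous UMIs, 35.2% lay in 3 cells, and 271 came from the 34 GE-SCJ cells of E19. The squamous level thus rests in large part on few cells. With thinning to 5000 UMIs, 7.78% of squamous and 0.708% of fibroblast cells held an Areg UMI, against 13.3% and 1.19% without.

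In esophageal squamous cells Areg was 44.8 and 30.4 CPM at E15 and E19, 14.4 among pup cells and 7.17 among adult cells (4.54 to 10.8), the adult interval lying below those of E15 and E19. GE-SCJ squamous cells held 48.7 CPM at E15, 502.9 at E19 (444.8 to 566.5), 38.8 in the pup and 25.1 in the adult. The E19 value came from 34 cells, of which 16 held the 271 UMIs, 116 of them in 1 cell and 67.9% in 3 cells. Of these 34 cells, 25 had the squamous markers as their highest list. GE-SCJ columnar cells were also highest at E19, with 19.6, 60.3 (54.8 to 66.3) and 17.0 CPM at E15, E19 and in the pup, and there 432 UMIs came from 83 cells. The 6 early-response genes stood at 3441, 6946 and 3309 CPM in these groups and at 4180 CPM in stomach columnar cells at E19. Their r with Areg was 0.42 over the squamous, 0.58 over the columnar and 0.45 over the fibroblast groups, but -0.16 over all 54 groups. Their part in the Areg levels was not tested. Stomach columnar cells held 16.6, 16.0 and 9.11 CPM. At E19 the GE-SCJ over stomach log2 ratio of columnar cells was 1.91 (1.64 to 2.18) for Areg and 0.66 for Hbegf. In that pair 1 of 7 members was called, against 3.98% of genes compared. For squamous cells at E19, the GE-SCJ over esophagus ratio was 4.03 (3.60 to 4.48) for Areg and 1.81 (1.45 to 2.17) for Hbegf, with 2 of 6 members and 13.2% of genes called. These pairs were chosen after their values were seen. Without the cells whose neighbours lay across birth, the E19 squamous level was 600.1 CPM in 29 cells, and the pup level was 19.5 CPM in 36 of 46 cells.

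Ereg codes for epiregulin. It was highest in squamous cells at 16.5 CPM (14.2 to 19.2) and next in smooth muscle at 7.19 (5.68 to 8.97), and it was at 0.370 CPM in columnar cells and at 0 UMIs in neural cells. The adult esophagus set the squamous level: esophageal squamous cells held 5.09, 1.17, 3.08 and 44.9 CPM from E15 through E19 and pup to adult, the last (37.8 to 52.8) from 144 UMIs in 18 of 232 cells, with up to 33 in 1 cell. The 3 UMIs of the pup all lay in cells with neighbours across birth. GE-SCJ squamous cells held 2.21, 5.57, 0 and 9.02 CPM. In stroma the pup was high instead. Smooth muscle held 1.73, 2.07 and 49.2 CPM (32.7 to 71.0) in the GE-SCJ and 0.605, 0.518 and 60.9 CPM (42.2 to 85.1) in the stomach at E15, E19 and in the pup, where 28 UMIs came from 14 of 119 cells and 34 UMIs from 20 of 113 cells. Without cells with neighbours across birth the GE-SCJ value at E19 was 1.25 CPM (3 UMIs). Stomach fibroblasts held 1.31, 4.54 and 31.4 CPM, the last from 14 UMIs in 6 cells. The r of Ereg with the 6 early-response genes was 0.71 over fibroblast, -0.29 over squamous and -0.36 over columnar groups. It was 0.24 over all 54 groups, and the part of these genes in the Ereg levels was not tested.

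Nrg1 codes for neuregulin 1. Fibroblasts were highest at 30.9 CPM (29.0 to 32.9) and held 75% of its UMIs, smooth muscle followed at 15.8 (13.6 to 18.4), and columnar cells were lowest at 0.856 (0.603 to 1.18). Thinned to 5000 UMIs, 7.10% of fibroblasts and 0.438% of columnar cells held a UMI, against 9.24% and 1.62% without thinning. Fibroblasts differed by region. In the esophagus Nrg1 was 4.99 CPM at E15, 3.01 at E19, 3.19 in the pup (2 UMIs) and 0 UMIs in the adult. In the GE-SCJ it was 24.4, 47.6 and 10.2 CPM at E15, E19 and in the pup, and in the stomach 38.2, 65.0 (59.0 to 71.5) and 29.1 CPM. The stomach level at E19 came from 430 UMIs in 109 of 701 cells, and that of the pup from 13 UMIs in 2 of 78 cells. Without the cells whose neighbours lay across birth, the pup levels were 11.2 CPM (4 UMIs) in the stomach and 5.74 CPM (2 UMIs) in the GE-SCJ.

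Esophageal fibroblasts were therefore the lowest of the 3 regions before birth, and the order from esophagus to GE-SCJ to stomach had intervals apart at E15 and at E19. The esophagus over stomach log2 ratio of Nrg1 was -2.88 (-3.63 to -2.20) at E15 and -4.37 (-5.06 to -3.75) at E19. For the mean of the cells' own CPM the E15 ratio was -1.88. At E15, 1 of 4 members compared was called, lower in the esophagus, where 8.29% of genes were called. At E19, 2 of 5 were called lower, Nrg1 and Ereg (-1.71, -2.90 to -0.64), where 10.4% of genes were called. In the pup, 1 of 3 was called lower, Erbb2 (-1.17, -2.47 to 0.06), where 9.42% of genes were called. Pup Nrg1 was at -2.71 (-5.15 to -0.87, on 2 against 13 UMIs). Pup Ereg was at -2.40 (-4.45 to -0.75, on 3 against 14 UMIs), and both had too few UMIs to be counted. Median log2 ratios of the members were -0.17, -0.64 and -0.49, against -0.11, -0.14 and -0.07 for all genes. Egfr ran the other way by less than 2-fold, with log2 ratios of 0.38, 0.39 and 0.43. In pairs chosen after values were seen, Nrg1 in esophageal over GE-SCJ fibroblasts was -2.23 at E15 and -3.92 at E19, whereas GE-SCJ over stomach was -0.64 and -0.45.

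Smooth muscle Nrg1 did not follow the fibroblasts. It was 20.3, 13.0, 43.6 (5 UMIs) and 5.83 CPM (1 UMI) in the esophagus at E15, E19, pup and adult, 27.7, 4.55 and 26.3 CPM in the GE-SCJ at E15, E19 and in the pup, and 17.5, 5.70 and 37.6 CPM in the stomach. E19 was thus the low stage in the GE-SCJ and stomach, where fibroblasts were at their highest. In pairs chosen after values were seen, the pup over E19 log2 ratio in smooth muscle was 2.67 (1.59 to 3.81) in the stomach and 2.50 (1.33 to 3.71) in the GE-SCJ for Nrg1, and 5.92 (3.96 to 9.02) on 34 against 1 UMI and 4.36 (3.07 to 5.92) for Ereg. In these pairs 27.0% and 23.8% of genes were called, with 3 of 6 and 2 of 5 members. Restricted to smooth muscle cells whose markers match the label, the Nrg1 ratios were -0.23 and -0.09, so both changed sign. Pup smooth muscle cells of the 2 regions had medians of 4586 and 4418 UMIs per cell and 11137 and 11773 CPM of the 6 early-response genes, against 2119 to 5006 CPM before birth. The part of these in the pup values was not tested.

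**Figure D3:**
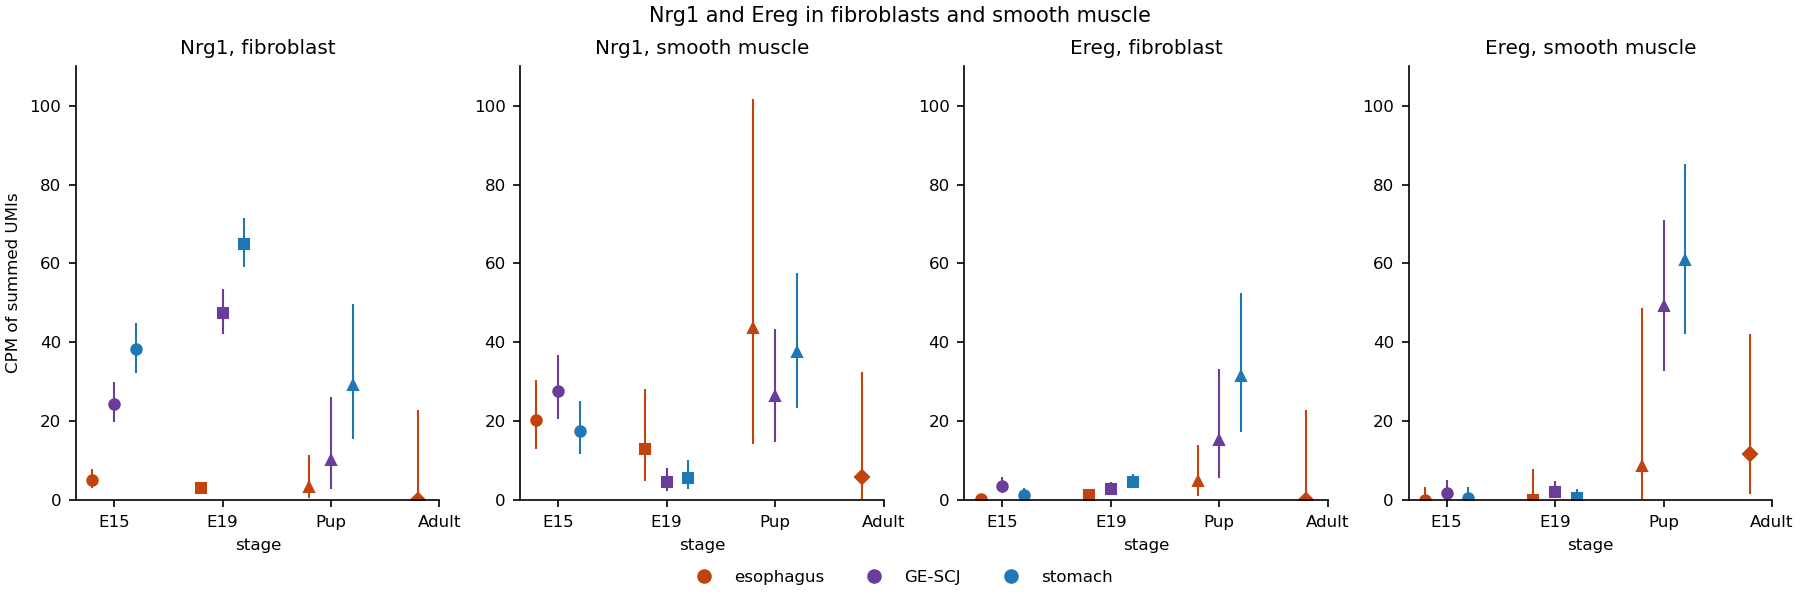
Level of Nrg1 and Ereg in CPM of summed UMIs (linear axis) in fibroblasts and smooth muscle by stage, with 1 point per region and exact 95% Poisson intervals. Nrg1 in fibroblasts is low in the esophagus and highest in the stomach at E19, and Ereg is highest in pup smooth muscle of the GE-SCJ and stomach.

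Tgfa codes for transforming growth factor alpha. Squamous cells were highest at 25.5 CPM (22.6 to 28.7), columnar and neural cells followed at 6.71 and 5.61 with overlapping intervals, and fibroblasts were lowest at 0.585. At least 1 UMI was found in 23.2% of squamous cells and 0.552% of fibroblasts, and in 9.82% and 0.273% with thinning to 5000 UMIs. Esophageal squamous cells held 16.3, 19.9, 42.1 and 32.7 CPM at E15, E19, pup and adult, and those of the GE-SCJ 6.63, 16.7, 34.3 and 24.5 CPM. The highest stage was the pup in both, with intervals that overlapped those of the adult. Columnar Tgfa ranged from 5.29 to 8.26 CPM over 7 groups.

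Btc codes for betacellulin. The second stromal label was highest at 28.3 CPM (20.03 to 38.85) on 38 UMIs, of which 20 lay in the GE-SCJ at E19 (39.0 CPM), 5 in the pup stomach (25.5 CPM) and the rest in groups under 20 cells. Columnar cells, squamous cells and smooth muscle were at 14.0, 11.7 and 9.58 CPM with overlapping intervals, fibroblasts were at 1.26 and endothelial cells at 0 UMIs. Esophageal squamous cells held 15.3, 28.1, 3.08 and 5.92 CPM at E15, E19, pup and adult, so the levels after birth were low, and the 3 UMIs of the pup all lay in cells with neighbours across birth. GE-SCJ columnar cells held 3.02, 11.03 and 17.6 CPM at E15, E19 and in the pup, and stomach columnar cells 12.7, 13.7 and 15.8 CPM. Stomach smooth muscle held 9.07, 19.2 and 28.7 CPM, the last being 16.6 CPM without the cells whose neighbours lay across birth.

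The epithelium and the fibroblasts were compared within each region and stage, to ask which of these classes carried ligands and receptors. In the esophagus, squamous cells exceeded fibroblasts for Hbegf at all 4 stages, with log2 ratios of 2.45 at E15 (1.92 to 3.00), 2.78 at E19 (2.35 to 3.21), 3.38 in the pup (2.55 to 4.36) and 1.86 in the adult (0.29 to 4.15, on 2 fibroblast UMIs). Areg ratios were 5.86 (4.22 to 8.19, on 2 fibroblast UMIs) at E15 and 4.44 (3.45 to 5.58) at E19, and Btc ratios 3.37 and 5.06. Tgfa was 4.35 at E19 and at least 8.82-fold higher in the pup, where fibroblasts had 0 UMIs. Erbb2 was 1.35 at E15 and 1.79 at E19. Egfr pointed the other way after E15, at -0.35 (-0.69 to -0.03) at E19, -0.88 (-1.30 to -0.46) for the pup and -1.70 (-2.29 to -1.06) for the adult. At E15 it was -0.33 with an interval (-0.75 to 0.06) that included 0.

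Counted over the members compared, 4 of 6 were called higher in esophageal squamous cells at E15 (28.3% of all genes were called), 5 of 7 at E19 (34.3%) and 2 of 4 in the pup (45.8%), with none called lower. In the adult 5 of 8 were called higher and 2 lower (45.7%), but the 31 adult fibroblasts held 0 UMIs of Erbb2, Areg, Ereg and Nrg1. There, Erbb2 was at least 2.85-fold and Ereg at least 2.42-fold higher in squamous cells, and no bound could be set for Areg and Nrg1. The 5 called higher included Nrg1 (1.24, -1.31 to 6.58) and Tgfa (1.42, -0.47 to 4.48, on 1 fibroblast UMI), with intervals that included 0. Adult fibroblasts held 161569 UMIs of all genes against 3209407 in squamous cells. Members with few or 0 fibroblast UMIs were thus counted through their squamous UMIs. The adult count and median therefore do not show how many members differ. The 2 called lower were Egfr and Btc, the latter on 2 fibroblast UMIs (-1.58, -3.33 to 0.82). Btc stood at 5.92 CPM in these squamous cells and at 12.38 CPM in the fibroblasts before the UMI added to each sum. Median log2 ratios of the members were 1.90, 2.78, 2.12 and 1.33 (2.00 and 1.26 in the pup and adult with genes at 0 set to their bound), against 0.05, -0.14, -0.60 and -0.44 for all genes.

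In the stomach, columnar cells exceeded fibroblasts for Hbegf with log2 ratios of 2.34, 2.83 and 2.41 at E15, E19 and in the pup. Areg ratios were 2.42, 3.28 and 1.04 (-0.851 to 4.102, on 1 fibroblast UMI), and Tgfa ratios 3.31, 3.26 and 0.63 (also on 1 UMI). The pup levels were 9.107 against 2.24 CPM for Areg and 6.83 against 2.24 for Tgfa, before the UMI added to each sum. Btc ratios were 3.31 and 3.19, and Btc was at least 2.35-fold higher in the pup. Egfr was lower in columnar cells at each stage, by -2.45 (-2.95 to -1.98), -2.23 (-2.55 to -1.92) and -3.85 (-4.33 to -3.36), and so was Nrg1 before birth, by -4.89 (-6.54 to -3.64) and -5.47 (-6.36 to -4.71). Erbb2 differed by less than 2-fold, with 0.71, 0.36 and -0.15.

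The calls in the stomach were 4 higher and 2 lower of 7 members at E15 (34.9% of all genes called), 4 and 3 of 8 at E19 (41.9%), the third lower one being Ereg at -3.48, and 3 and 1 of 6 in the pup (45.7%). The members' median log2 ratios were 2.34, 1.59 and 0.83, against -0.20, -0.30 and -0.49 for all genes. Pup Nrg1 was at -6.16 (-7.99 to -4.61, on 4 against 13 UMIs). Pup Ereg was at -6.26 (-8.08 to -4.73, on 4 against 14 UMIs). Both had too few UMIs to be counted, so the pup count and median leave out these lower values. Their fibroblast UMIs lay in few cells, as given with each gene.

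**Figure D4:**
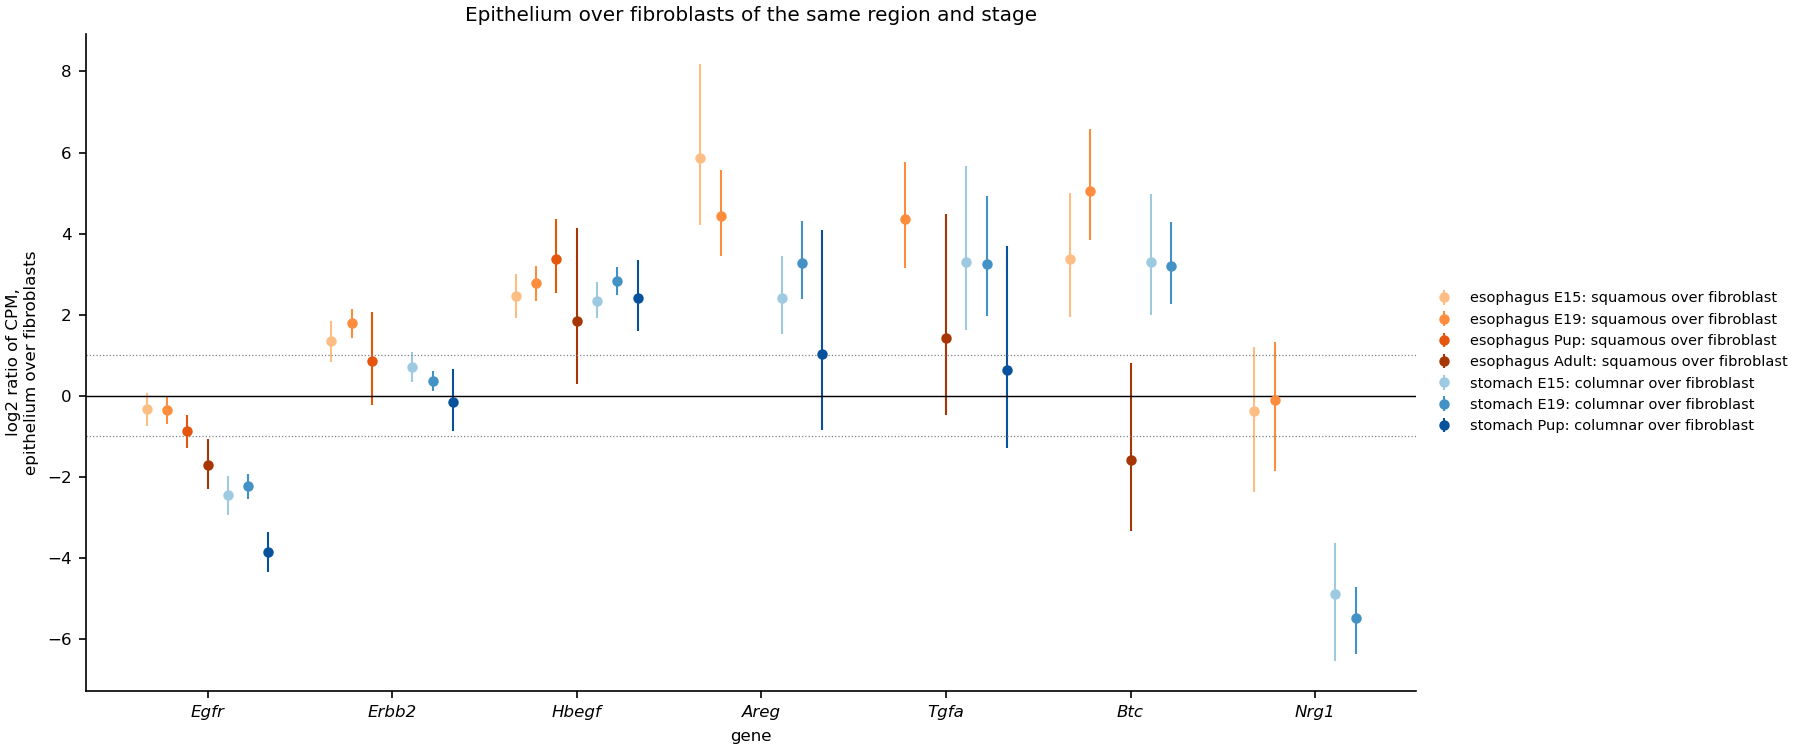
Log2 ratio of CPM of epithelium over fibroblasts (vertical axis) for 7 members, 1 point per region and stage where both groups had UMIs and the pair could be compared, with exact 95% intervals for counting error and dotted lines at 2-fold. Hbegf lies above 0 in all 7 comparisons and Egfr below 0 in all 7, though the Egfr interval of the esophagus at E15 includes 0. Stomach Egfr values run from -2.23 to -3.85.

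At the GE-SCJ, where squamous and columnar cells meet, both lineages were compared at the same stage. Egfr was higher in squamous cells, with log2 ratios of 1.14 (-0.12 to 2.45) at E15, 1.71 (0.85 to 2.49) at E19 and 1.76 (0.98 to 2.47) in the pup. Areg was higher too, at 1.29 (0.57 to 2.03), 3.06 (2.84 to 3.28) and 1.24 (0.59 to 1.84), and Tgfa at 1.56 (0.41 to 2.57) at E19 and 2.58 (1.81 to 3.32) in the pup. The pup value of Areg was 0.04 for the mean of the cells' own CPM and 0.29 without the cells whose neighbours lay across birth, and its E19 value stayed between 2.39 and 2.71 under the settings that moved it. Hbegf ran at -0.14, 0.93 and -0.24 and Erbb2 at 0.09, 0.82 and 0.74, all under 2-fold. Btc was lower in squamous cells of the pup, at -1.57 (-3.46 to -0.18), on 3 squamous UMIs. Members called were 2 of 4 at E15 (15% of genes), 3 of 6 at E19 (24.3%) and 4 of 6 in the pup, 3 higher and 1 lower (29.6%), with medians of 0.61, 1.28 and 0.99 against -0.08, -0.04 and 0.02 for all genes.

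Stages of a class were compared between the earliest and the latest only, and the stages between are given with each gene. In esophageal squamous cells from E15 to adult, Ereg was higher at 2.89 (1.73 to 4.36) and Nrg1 at 1.85 (0.40 to 3.78, on 3 E15 UMIs), Areg was lower at -2.62 (-3.39 to -1.87) and Btc at -1.39 (-2.41 to -0.34), and Hbegf, Erbb2, Egfr and Tgfa lay between -0.32 and 0.93. These were 2 calls higher and 2 lower of 8 members, where 36.6% of genes were called, with a median of -0.12 against -0.50. For the mean of the cells' own CPM the Ereg ratio was 1.66. The adult group included 109 cells with mostly suprabasal markers, whereas at E15 no suprabasal part could be formed. These ratios therefore set different mixes of layers against each other. Adult levels by layer are given below for Ereg and Nrg1, but not for Areg and Btc. In stomach columnar cells from E15 to the pup, Hbegf alone of 6 members was called, at 1.02 (0.83 to 1.21), where 33.1% of genes were called (medians -0.27 and -0.41). The Hbegf ratio was 0.92 and no longer called for the mean of the cells' own CPM and for the library size without mitochondrial, ribosomal protein and hemoglobin genes.

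Fibroblasts were compared in the same way. In the esophagus from E15 to adult, Egfr was called higher at 1.05 (0.42 to 1.62) and Erbb2 lower, with 0 against 86 UMIs and at least 1.22-fold lower, among 3 members, where 32.8% of genes were called (medians 0.47 and 0.13). In the stomach from E15 to the pup, Egfr was called higher at 1.03 (0.59 to 1.46) among 4 members, where 23.5% of genes were called (medians 0.66 and -0.05). This Egfr ratio was no longer called for the mean of the cells' own CPM. The same held for the library size without mitochondrial, ribosomal protein and hemoglobin genes. Both shares called among members rest on few genes.

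Squamous cells hold a dividing basal layer and differentiating suprabasal layers. Esophageal squamous cells were split by the share of basal markers (Krt5, Krt14, Krt15, Col17a1 and Itgb4) among basal and suprabasal marker UMIs (Krt13, Krt4, Sbsn, Krtdap and Lor), a range and not a cell type, with 8 of 123 cells at E19, 5 of 85 in the pup and 11 of 231 in the adult lying near the cut. At E15 no suprabasal part could be formed. Fibroblast markers had medians of 152.2 to 342.9 CPM in these parts, and the second stromal list had 624 CPM in suprabasal pup cells and 0 in the others.

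Hbegf was higher in suprabasal cells at each stage. It stood at 15.4 CPM in basal and 127.1 in suprabasal cells at E19, at 148.7 and 245.0 in the pup, and at 21.1 and 89.0 in the adult. Tgfa followed the same order, with 4.74 and 34.7 CPM at E19, 10.6 and 71.7 in the pup, and 19.2 and 39.2 in the adult. Erbb2 stood at 37.9 and 106.3 CPM at E19 and at 28.8 and 64.6 in the adult. Adult Ereg was higher in the suprabasal part, at 65.5 CPM against 1.92, though few cells held its UMIs, as given with that gene.

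Egfr was not higher in suprabasal cells at any stage. It stood at 56.9 CPM in basal and 50.9 in suprabasal cells at E19, at 133.9 and 53.8 in the pup (log2 ratio 1.29) and at 57.6 and 48.0 in the adult, with overlapping intervals at E19 and in the adult. Adult Nrg1 was higher in basal cells, at 28.8 against 7.38 CPM. Areg was 11.8 and 48.5 CPM at E19, with 10 of the basal UMIs in 1 cell, but 25.5 and 3.98 CPM in the pup. In the adult GE-SCJ the order for Hbegf (65.5 and 127.2 CPM) and Erbb2 (21.8 and 51.7 CPM) was as in the adult esophagus.

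**Figure D5:**
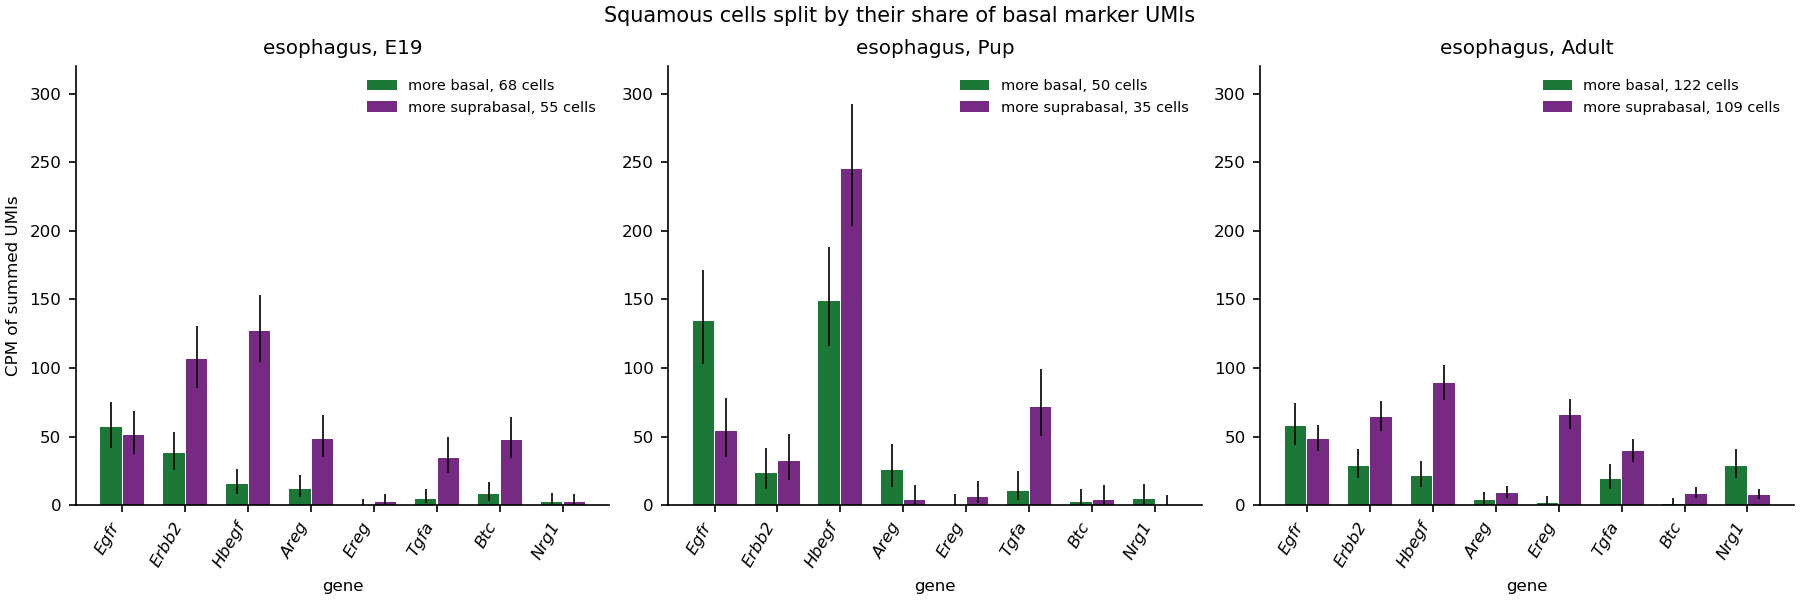
Level of 8 members in CPM of summed UMIs (bars from 0, exact 95% Poisson intervals) in esophageal squamous cells with more basal or more suprabasal marker UMIs, with 1 panel each for E19, pup and adult. Hbegf and Tgfa bars are taller in the suprabasal part at each stage, the Egfr bar is taller in the basal part of the pup, and the Ereg bar stands out in the adult suprabasal part.

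The authors' second squamous label held 40 cells, 29 of them in the pup esophagus. Against the other 56 squamous cells there, it held 278.8 CPM of Hbegf against 141.9, 84.6 of Tgfa against 12.3 and 42.3 of Egfr against 127.9. All 29 cells were among the 35 of the suprabasal part, so both splits describe largely the same cells.

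Columnar cells were ranked by markers of pit cells (the surface mucous cells, Tff1, Gkn1, Gkn2 and Muc5ac), of parietal cells (the acid-secreting cells, Atp4a and Atp4b) and of the gland base (Pgc and Muc6). In the pup stomach, the 88 cells highest for each list were set against the 176 lowest. Every ranking cut the same cells, so the parts overlap between rankings and are not separate cell types. Pit-high cells held 169.2 CPM of Hbegf against 118.6, 21.3 of Areg against 3.76, 18.97 of Tgfa against 2.82, 30.6 of Btc against 10.2 and 48.8 of Erbb2 against 25.1. Parietal-high cells were low in members, with 13.9 CPM of Hbegf against 203.7 and 9.84 of Erbb2 against 43.6, and their Areg was at 0 UMIs, at least 10.4-fold lower. Cells highest for the gland base held 168.9 CPM of Hbegf against 86.3, but 0.682 of Areg against 12.4.

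The same ranking in the GE-SCJ of the pup, 73 against 146 cells, gave 37.1 against 5.98 CPM of Areg, 12.9 against 2.99 of Tgfa and 17.6 against 6.41 of Egfr for pit-high cells. Parietal-high cells there held 58.0 CPM of Hbegf against 129.2. In the stomach at E19, 92 against 183 cells, pit-high cells held more Areg (28.9 and 8.18 CPM) and Btc (23.6 and 9.20) but less Hbegf (38.7 and 107.1), and parietal rank gave nearly equal Hbegf (80.9 and 86.3). Areg and Btc thus had the same order by pit markers at E19 and in the pup stomach, and Hbegf had opposite orders, with intervals apart in each. In the pup stomach, parietal-high cells were far lower in Hbegf than parietal-low cells. How many of them lay in the pit-low part was not measured. The pup order of Hbegf therefore does not place pit-high cells above other cells low in parietal markers.

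The other genes of the pathway were followed as a list of 35 (further ligands and receptors, genes of ligand shedding, feedback inhibitors, adaptors and response genes), all in the table. In esophageal squamous cells over fibroblasts, 7 were called higher and 4 lower of 28 compared at E15 (28.3% of all genes were called), 4 and 6 of 28 at E19 (34.3%), 4 and 11 of 27 in the pup (45.8%) and 2 and 11 of 29 in the adult (45.7%). In the stomach, columnar over fibroblast, the counts were 6 and 8 of 31 at E15 (34.9%), 5 and 12 of 31 at E19 (41.9%) and 4 and 13 of 30 in the pup (45.7%). The list's median log2 ratios went from 0.17 at E15 to -0.79 in the adult in the esophagus and from -0.36 at E15 to -0.87 in the pup in the stomach, against 0.05 to -0.44 and -0.20 to -0.49 for all genes. Over the other comparisons given here the list's median lay between -0.81 and 0.47 and that of all genes between -0.50 and 0.16.

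Erbb3 was higher in columnar cells than in stomach fibroblasts at each stage, at 3.39, 3.58 and 2.71 on the log2 scale, and in esophageal squamous cells at E19 at 3.44. Spry1, Spry2 and Spry4 code for feedback inhibitors of the Sprouty family. Of their 20 comparisons of epithelium over fibroblasts, 15 were called lower in epithelium and 0 higher, and Spry1 in the esophagus at E15 lay the other way at 0.52. These are 3 related genes over the same pairs of groups. All genes were also called lower more often than higher in each pair. The lowest share was 1914 of 11465 genes lower in the esophagus at E15, and the highest 2667 of 7902 in the pup esophagus. Spry4 was lower in epithelium by -2.19 at E15 and -3.73 at E19 (2 squamous UMIs, -6.03 to -2.16) in the esophagus and by -2.74 and -4.11 in the stomach, and Spry2 by -3.69 in the pup esophagus and -3.30 in the pup stomach. Errfi1, which codes for an inhibitor of the EGFR kinase, was on the epithelial side at E15, at 2.08 in the esophagus and 1.502 in the stomach. Lrig1, another EGFR inhibitor, was at 2.73 in the esophagus at E15.

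At the GE-SCJ, squamous over columnar, the list gave 1 higher and 2 lower of 26 at E15 (15% of all genes were called), 7 and 3 of 29 at E19 (24.3%) and 4 and 1 of 29 in the pup (29.6%), with Ier3, an early-response gene, at 2.35 and 1.57 at E19 and in the pup. From E15 to adult, esophageal squamous cells had 2 higher and 9 lower of 29 (36.6%), with Lrig1 lowest at -3.40, and esophageal fibroblasts 8 and 4 of 28 (32.8%). From E15 to the pup, stomach columnar cells had 2 and 3 of 31 (33.1%), and stomach fibroblasts 6 and 1 of 28 (23.5%), led by Ier3 at 3.76 and Errfi1 at 3.39. Esophageal over stomach fibroblasts had 0 and 1 of 28 at E15 (8.29%), 0 and 3 of 30 at E19 (10.4%) and 4 and 1 of 25 in the pup (9.42%). Dusp6, a phosphatase induced by MAP kinase signalling, was called in all 3 of these, at -1.04, -1.76 and 1.11.

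Neural over fibroblast cells had 6 higher and 4 lower of 33 (26.7%), led by Erbb3 at 5.13 (4.89 to 5.38) and Dusp6 at 3.42 (3.29 to 3.56). Among the other family ligands, Nrg3 was at 18.7 CPM in neural cells and at most 0.246 CPM in any other class. Nrg2 was at 72.2 CPM in the second stromal label, with smooth muscle next at 11.9, and Egf itself was at 1.12 to 4.30 CPM in all 8 classes.

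Genes whose levels were most like those of a member were found by Pearson's r of log2(CPM + 10) over the 54 groups, which share 1 library and differ in depth, so r is a description. Egfr was most like Tmem45a (r = 0.84), Col8a1 (0.77) and Osr2 (0.77), and Erbb2 like Polr2f (0.78), Rab15 (0.75) and Cttn (0.73). For the ligands these were AA986860, Mal and Rab11fip1 for Hbegf (0.72 each), Adam28 (0.84), Cldn4 (0.80) and Macc1 (0.79) for Areg, and Itgb4 (0.90), Eps8l2 (0.85) and AI661453 (0.83) for Tgfa. Btc was most like Fam110c (0.73), Zbtb7c (0.68) and Acaa2 (0.68). Ereg was most like Adamts4 (0.68), Adm (0.68) and Agt (0.64), and Nrg1 like Fendrr (0.69), Fat4 (0.65) and Smad9 (0.65). Among the members, r was 0.60 for Hbegf with Tgfa, 0.54 for Hbegf with Areg and -0.51 for Hbegf with Nrg1.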

How the data were processed

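Single cells of 3 regions and 4 stages were tagged, pooled and sequenced in 1 droplet library. The authors deposited UMI counts per gene and cell, made with Cell Ranger 6.1.1 on build mm10 (GRCm38) and filtered by them on genes, UMIs and mitochondrial reads, and a cell table with labels, tags and a percent column, the deposited percent of mitochondrial UMIs. No further doublet removal was done. The authors' normalized values were not used here. Cells were grouped by label and tag, counts were summed over cells, and levels are CPM with exact 95% Poisson intervals, groups under 20 cells being left out. Shares of cells have exact Clopper-Pearson intervals. Thinned shares are those expected at 3000 or 5000 UMIs per cell, over the cells with at least that many. Log2 ratios add 1 UMI to each sum, and their exact conditional intervals are of the sums with that UMI. Between groups of unlike size the added UMI shifts ratios that rest on few UMIs. With 1 sample per group there is no test, and "called" means at least 2-fold with at least 20 UMIs over both groups, counted over all genes in 18 comparisons. A gene at 0 UMIs was bounded with 3 UMIs per group.

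All 10 members are named. Genes most alike are the 3 with the highest r among genes with at least 500 UMIs, for members with at least 200. Of the 35 pathway genes, at most 5 per comparison could be named, from those called with at least 100 UMIs over both groups, largest first. The members, gene lists and comparisons were chosen with earlier results of these data known. Of the listed markers, 2 (Cd3e and Gif) were not in the table. The neural label was checked with 4 of its 6 listed markers, chosen after values were seen, and values that need the other 2 are not reported here. Gene positions are from GENCODE and promoter sequence from RefSeq. Calculations were done in Python 3.11.15 with scanpy 1.11.5, scikit-learn 1.9.0, pandas 2.3.3, numpy 2.4.6 and scipy 1.17.1, and matplotlib 3.10.9 drew the plots. The counting of calls was tested on simulated data. Alternatives changed the cells, the library size, the summing and the call threshold.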

Additional observations from a re-analysis of the deposited data

Results flagged for a closer look

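Of the members and the 35 pathway genes, 6 pathway genes had log2 ratios past 2-fold, with intervals that did not reach 0, in opposite directions under the same kind of contrast, and each was picked for that difference after its values were seen. Among the members, Btc in esophageal squamous over fibroblast cells was past 2-fold in opposite directions at E15 (3.37) and E19 (5.06) and in the adult (-1.58), but the adult interval (-3.33 to 0.82) included 0. The differences were not tested, since each group is 1 pooled sample.

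Dusp6, a phosphatase gene induced by MAP kinase signalling, was higher in esophageal squamous cells than in fibroblasts at E15 (1.35) and E19 (1.36) and lower in the pup (-2.13) and adult (-1.46). The differences between these log2 ratios were 3.48 and 2.81 for E15 and 3.49 and 2.82 for E19. Dusp6 also turned between esophageal and stomach fibroblasts, from -1.04 at E15 and -1.76 at E19 to 1.11 in the pup, differences of -2.15 and -2.87. Pup esophageal fibroblasts, which enter both, held 12545 CPM of the 6 early-response genes and a median of 3859 UMIs per cell, and the part of these was not tested.

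Of the Sprouty and Spred inhibitors of Ras and MAP kinase signalling, Spry1 was lower in adult than in E15 esophageal squamous cells (-1.63) and higher in fibroblasts (1.68), a difference of -3.32. Spred2 did the same (-1.30 and 1.24, difference -2.53), and its squamous over fibroblast ratio turned from 1.32 at E15 to -1.21 in the adult, a difference of 2.53. Spry4 was lower in pup than in E15 columnar cells of the stomach (-1.32) and higher in fibroblasts (1.28), a difference of -2.59. The adult esophageal fibroblasts behind Spry1 and Spred2 were 31 cells.

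Etv5, a transcription factor gene induced by receptor kinases, was lower in squamous cells than in fibroblasts of the esophagus at E15 (-1.89) and higher in columnar cells than in fibroblasts of the stomach (1.16), a difference of -3.05. Dusp5, another MAP kinase phosphatase gene, was higher in squamous than in columnar cells of the GE-SCJ at E19 (1.10) and lower in the pup (-1.41), a difference of 2.51.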

How the results depend on the processing

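Counts of members called were recomputed under 8 other settings, and 122 of these counts stayed within 1.5 times the value given. With calls at 1.5-fold, the count for esophageal squamous over fibroblast cells of the pup was 4 in place of 2, for GE-SCJ squamous over columnar cells at E19 6 in place of 3, and for stomach columnar and stomach fibroblast cells of the pup over E15 2 each in place of 1. With a minimum of 5 UMIs these counts were 4, 2 and 2 for the pup esophagus, stomach columnar cells and stomach fibroblasts, and 3 and 4 in place of 1 for esophageal over stomach fibroblasts at E15 and in the pup. With the mean of each cell's CPM, and with the library size without mitochondrial, ribosomal protein and hemoglobin genes, the counts were 0 for stomach columnar cells and stomach fibroblasts of the pup over E15 and 1 in place of 2 for adult over E15 esophageal fibroblasts. The mean of each cell's CPM also gave 0 in place of 1 for pup esophageal over stomach fibroblasts, as did cells whose markers match their label. Without cells with neighbours across birth, GE-SCJ squamous over columnar cells at E15 gave 1 in place of 2 and stomach fibroblasts of the pup over E15 gave 3. Leaving out the 1% of cells that held most UMIs of a gene, these counts were 1 and 2, and that of E19 esophageal over stomach fibroblasts was 1 in place of 2. The cause of these moves was not tested.

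Of the log2 ratios under other settings, 478 moved by less than their interval, 30 moved by more, and 2 reversed: Nrg1 in smooth muscle of the pup over E19 was -0.235 in the stomach and -0.094 in the GE-SCJ among cells whose markers match their label, against 2.67 and 2.50. The settings for pairs chosen after values were seen were added then too. Thinning moved 79 of 82 shares of cells past their interval. With 1 pooled sample per group no replicate could be left out, and no difference between mice can be told apart from counting error. No paired analysis was possible because each region and stage is 1 pooled sample without replicate numbers.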
